A study of Mus musculus with 12 samples.

Results

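Polycomb repressive complexes are the chromatin enzymes examined here, through 9 of their genes: *Ezh1*, *Ezh2*, *Eed*, *Suz12* and *Jarid2* of complex 2 (PRC2) and *Bmi1*, *Cbx2*, *Cbx7* and *Cbx8* of complex 1 (PRC1). The genes were chosen by name, for their place in these complexes, though with earlier results of these data known. All 9 were found among the 45792 genes listed and among the 15706 genes with enough reads to test. RNA was sequenced from 12 cultures of neural stem cells (NSCs) grown from the forebrain of newborn mice in serum-free medium with EGF and FGF. There were 4 cultures of wild-type (WT) NSCs, 4 of NSCs without Ncf1 (*Ncf1*-/-) that the labels give as untreated and the study as vehicle-treated, and 4 of *Ncf1*-/- NSCs given recombinant mouse Igfbp2. Ncf1 is a subunit of the NADPH oxidase, and Igfbp2 is a secreted protein that binds insulin-like growth factors. Igfbp2 was added 48 h after plating, at 100 ng/ml by the labels (the study's text gives a lower dose), and RNA was taken 48 h later from every group. The WT mice were C57BL/6J, and the *Ncf1*-/- mice, which lack Ncf1 in all their cells, had been backcrossed to them. Each culture was grown from a separate pup, except that the study pairs each vehicle-treated with an Igfbp2-treated culture of the same *Ncf1*-/- pup.

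PRC2 places methyl groups on lysine 27 of histone H3, and the mark keeps developmental genes silent. Its catalytic subunit is either Ezh2, the form of dividing progenitors, or the weaker Ezh1, which is kept in cells that have left the cycle. Eed reads the mark, Suz12 holds the complex together, and Jarid2 brings it to its targets. PRC1 adds ubiquitin to histone H2A and compacts chromatin. Bmi1 (Pcgf4) is the partner of its ubiquitin ligase and is known for sustaining the renewal of NSCs, and the Cbx proteins, of which a complex holds a single kind, dock PRC1 on the methylated lysine.

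The DNA around the start of the genes of the catalytic core is shown because these genes moved apart: *Ezh2*, *Eed* and *Suz12* were higher, and *Ezh1* was lower, in *Ncf1*-/- NSCs. Each line holds the 250 bases before the RefSeq start site and the 20 that begin with it, 5′ to 3′ on the gene's strand (RefSeq, build GRCm38.p6), at chr6:47595011-47595280 (*Ezh2*, minus strand), chr7:89980957-89981226 (*Eed*, minus strand), chr11:79992856-79993125 (*Suz12*, plus strand) and chr11:101226444-101226713 (*Ezh1*, minus strand). Capitals mark matches, on either strand, to letters that E2F factors are known to bind in genes of DNA replication (TTTCCCGC, TTTGGCGC, TTTCGCGC or TTTGCCGC), to the cell cycle homology element of mitotic genes (CHR, TTTGAA, or TTCAAA on the other strand) and to the CCAAT box (CCAAT, or ATTGG on the other strand).
Ezh2: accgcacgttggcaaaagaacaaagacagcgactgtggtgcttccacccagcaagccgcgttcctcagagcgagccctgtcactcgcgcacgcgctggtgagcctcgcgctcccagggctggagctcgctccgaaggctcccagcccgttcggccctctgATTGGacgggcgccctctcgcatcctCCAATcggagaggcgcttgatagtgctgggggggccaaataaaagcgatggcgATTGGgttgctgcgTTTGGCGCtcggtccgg
Eed: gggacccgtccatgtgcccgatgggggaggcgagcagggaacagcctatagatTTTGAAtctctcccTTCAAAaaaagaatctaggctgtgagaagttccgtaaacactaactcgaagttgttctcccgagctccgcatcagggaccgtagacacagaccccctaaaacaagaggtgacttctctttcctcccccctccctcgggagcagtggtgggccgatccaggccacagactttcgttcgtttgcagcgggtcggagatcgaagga
Suz12: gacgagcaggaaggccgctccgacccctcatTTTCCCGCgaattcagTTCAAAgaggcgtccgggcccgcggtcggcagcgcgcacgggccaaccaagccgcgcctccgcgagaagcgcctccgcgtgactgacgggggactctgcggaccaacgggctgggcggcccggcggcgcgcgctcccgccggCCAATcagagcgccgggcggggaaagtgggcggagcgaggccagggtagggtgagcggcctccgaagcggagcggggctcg
Ezh1: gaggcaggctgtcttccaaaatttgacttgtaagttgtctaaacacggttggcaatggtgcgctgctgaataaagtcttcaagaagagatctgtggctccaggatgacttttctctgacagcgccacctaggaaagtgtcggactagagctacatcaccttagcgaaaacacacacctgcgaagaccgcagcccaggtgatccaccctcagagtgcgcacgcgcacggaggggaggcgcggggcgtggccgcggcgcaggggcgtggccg

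In *Ezh2* the E2F letters began at base 4 counted from the start site, and CCAAT boxes began 90, 64 and 11 bases before it. In *Suz12* the E2F letters began 219 bases, a CHR 203 bases and a CCAAT box 61 bases before the start. *Eed* held CHR letters 197 and 183 bases before the start and a CCAAT box at base 26 counted from it, past the printed bases. *Ezh1* held none of the 3 motifs. Over windows of 300 bases, the E2F letters were in 2 of the 8 Polycomb genes with an entry (*Ezh2* and *Suz12*) and in 2.6% of 27025 mouse genes. CHR letters were in 3 of 8 (*Eed*, *Suz12* and *Cbx7*) against 20.2%. A CCAAT box was in 6 of 8 (*Ezh2*, *Eed*, *Suz12*, *Jarid2*, *Cbx7* and *Cbx8*) against 41.1%. Genes with this box thus included *Jarid2* and *Cbx8*, which were lower in *Ncf1*-/- NSCs, as well as genes that were higher. The E-box CACGTG was in *Bmi1* and *Cbx8* (2 of 8, against 8.09%). No matches overlapped, and a match is a string of letters and not a measured site. GC content of the 250 bases was 73.6% in *Suz12*, 63.6% in *Ezh2*, 55.2% in *Ezh1* and 54.4% in *Eed*, beside a median of 52.4% over all promoters of the table.

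The genes lie apart in the genome, save for a pair of Cbx genes. *Cbx2* (chr11:119022962-119031270, plus strand) and *Cbx8* (chr11:119036305-119040969, minus strand) are neighbours, and *Ezh1* and *Suz12* are elsewhere on the same chromosome (GRCm38, GENCODE M21). An exon of *Cbx7* shares 100 bases with *Apobec3* on the opposite strand, which had 164 to 764 counts per library. *Eed*, *Suz12* and *Ezh2* share 261, 178 and 174 exon bases with opposite-strand noncoding genes, none of which had over 28.0 counts. Whether the counting used strand is not given in the sources used here, so that reads from these shared bases, those of *Cbx7* above all, cannot be assigned with certainty.

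Expected counts (RSEM's estimate of the reads from each gene) summed to between 18216794 and 34086554 per library in the vehicle-treated *Ncf1*-/- and WT groups and to between 18201622 and 22837749 with Igfbp2. The smallest count of a Polycomb gene was 46 (*Cbx7*) and the largest 3184 (*Jarid2*). *Ncf1* itself had 1 to 7 counts in each of the 12 libraries, too few to check the genotype. The 8 neural stem cell markers were all detected, and 2 were called higher (*Nes* among them, log2 fold change 1.92) and 5 lower (*Sox2*, *Pax6*, *Hes5*, *Msi1* and *Prom1*) in *Ncf1*-/- libraries with vehicle, compared with WT. Their summed CPM (counts scaled to a common library size) was 2456 to 3741 in WT save replicate 11, which stood apart with 7970, and 7456 to 8231 in the *Ncf1*-/- libraries. The markers with the largest means weighed most on this sum. They were *Vim* (1847 CPM in WT and 4040 with vehicle, not called, edgeR adjusted p = 0.0636) and *Fabp7* (1369 and 2672 CPM, called higher). The 7 microglial markers summed to 2.13 CPM or less in each library, with *Aif1* and *Ptprc* at 3 or fewer counts, and 1 of the 2 tested, *Itgam* (at most 30 counts), was called higher in *Ncf1*-/- (0.97, edgeR adjusted p = 0.0146). WT cultures also held much RNA of oligodendrocyte markers (summed CPM of 12 markers 3434 to 12203, against 2153 to 2322 in vehicle-treated *Ncf1*-/-). In such bulk RNA, fewer cells of a type and less RNA per cell cannot be told apart. Summed CPM of 4 Y-linked genes was 105 to 116 in vehicle-treated and 7.79 to 9.18 in Igfbp2-treated *Ncf1*-/- NSCs, although the study states that the cultures came from the same pups, so that treatment and sex-linked expression cannot be told apart. Of the WT libraries, replicate 12 stood apart with 6.46, against 107 to 118 in the others, and results are therefore also given without it. The sample sheets supplied with the study disagree on this library: 2 list it as untreated WT, as the labels do, and 1, headed as switched samples, lists it as WT given apocynin, an inhibitor of the NADPH oxidase. The label was kept, and whether libraries were exchanged was not tested.

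Levels of the 9 genes can be ranked only per transcript length, in TPM (RSEM's abundance per transcript length). In WT NSCs *Bmi1* was highest at 24.8 ± 1.7 TPM (SD, n = 4), followed by *Ezh2* at 18.5 ± 1.0, *Jarid2* at 14.3 ± 2.7, *Eed* at 8.15 ± 0.67 and *Suz12* at 6.72 ± 1.12. *Cbx8* followed at 5.66 ± 0.79, *Cbx2* at 2.99 ± 0.43, *Ezh1* at 2.27 ± 0.38 and *Cbx7* at 1.16 ± 0.36. Neighbours whose libraries overlapped, and whose order is therefore open, were *Ezh2* and *Jarid2*, *Eed* and *Suz12*, *Suz12* and *Cbx8*, and *Cbx2* and *Ezh1*. In vehicle-treated *Ncf1*-/- NSCs *Ezh2* stood at the top with 32.0 ± 4.5 TPM and *Bmi1* next with 23.5 ± 5.5, though their libraries overlapped, and *Jarid2*, at 9.73 ± 1.16, was under *Eed* without overlap, while its libraries lay within the range of *Suz12*. With Igfbp2, *Ezh2* was at 18.1 ± 3.8 and *Bmi1* at 14.9 ± 3.8 TPM, again overlapping, and *Cbx7* was the lowest of the 9 in every group, at 0.66 ± 0.33 with Igfbp2. TPM is scaled to a fixed sum, so levels of a gene are compared between groups below on CPM, and TPM served for order within a group.

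**Figure D1:**
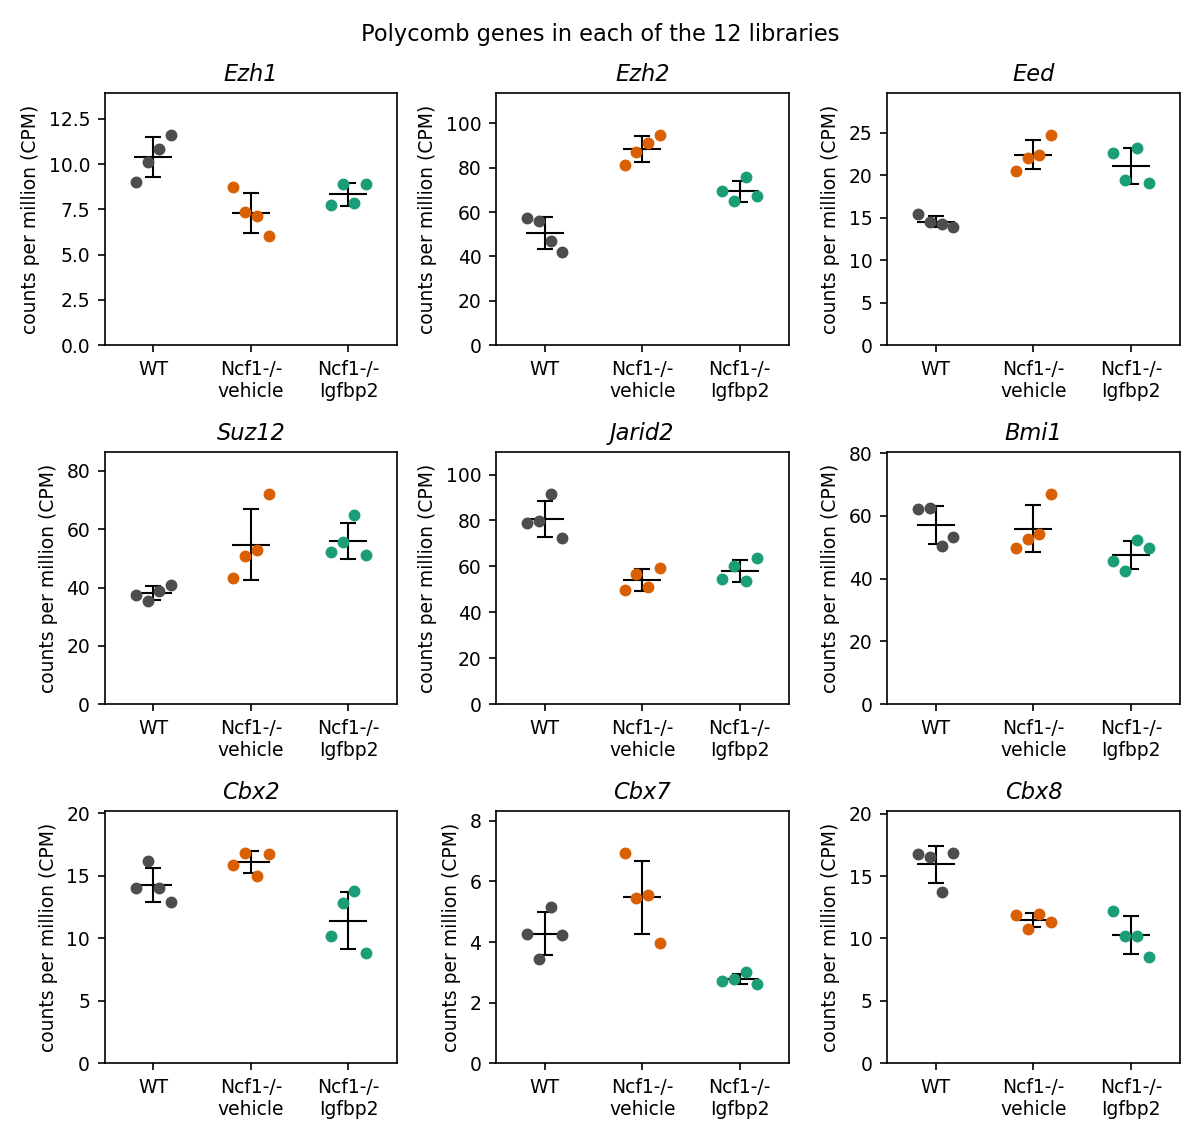
CPM of the 9 Polycomb genes in each library. Points are libraries in the order of their replicate numbers, horizontal bars are group means and error bars are SD (n = 4 libraries per group). The WT and vehicle-treated *Ncf1*-/- points do not overlap for *Ezh1*, *Ezh2*, *Eed*, *Suz12*, *Jarid2* and *Cbx8*, and the Igfbp2-treated points lie under the vehicle-treated ones for *Ezh2*, *Cbx2* and *Cbx7*.

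The comparison of vehicle-treated *Ncf1*-/- with WT NSCs asks what the loss of Ncf1 does to the transcriptome. Of the 9 Polycomb genes, 6 passed the test (edgeR, adjusted p under 0.05 over all genes), 3 higher and 3 lower, whereas 57.2% of all 15706 genes passed it, 28.9% higher and 28.2% lower. The same 6 had no overlap between the groups in CPM, as did 51.2% of all genes. Polycomb genes were thus called about as often as other genes. When libraries were scaled by their totals alone, 6024 genes were called higher and 3159 lower, in place of 4545 and 4433, and *Cbx7* (log2 fold change 0.52) joined the 6. *Ezh2*, *Eed* and *Suz12*, the subunits of the PRC2 core, rose by 0.52 to 0.81 on the log2 scale. The alternative catalytic subunit *Ezh1*, the accessory subunit *Jarid2* and the PRC1 reader *Cbx8* fell by 0.47 to 0.57.

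*Ezh2* CPM was 57.4, 56.0, 46.8 and 42.1 in WT replicates 9 to 12 and 81.3, 86.9, 91.1 and 94.5 in vehicle-treated *Ncf1*-/- replicates 1 to 4. Each *Ncf1*-/- library was above each WT library, a log2 fold change of 0.81 ± 0.10 (± SE, as for all fold changes, edgeR adjusted p = 2.03e-05), or 1.75-fold. *Ezh1* showed the opposite order, with 9.01, 10.1, 10.8 and 11.6 CPM in WT and 8.71, 7.35, 7.15 and 6.04 CPM in *Ncf1*-/-. The groups did not overlap, by a narrow margin between WT replicate 9 and *Ncf1*-/- replicate 1, and the log2 fold change was −0.51 ± 0.13 (edgeR adjusted p = 0.00370). The ratio of *Ezh2* to *Ezh1* in TPM was between 7.24 and 10.4 in WT, between 15.2 and 27.3 in vehicle-treated *Ncf1*-/- and between 10.7 and 14.7 in Igfbp2-treated *Ncf1*-/- NSCs. Across libraries of the same group as well, those with more *Ezh2* tended to have less *Ezh1* (Pearson r = −0.93 over 12 libraries and −0.81 with group means removed, a description, since both values share a library and its scaling). This was not particular to the pair. With group means removed, *Ezh1* had r = −0.88 with *Eed* and −0.78 with *Bmi1*.

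**Figure D2:**
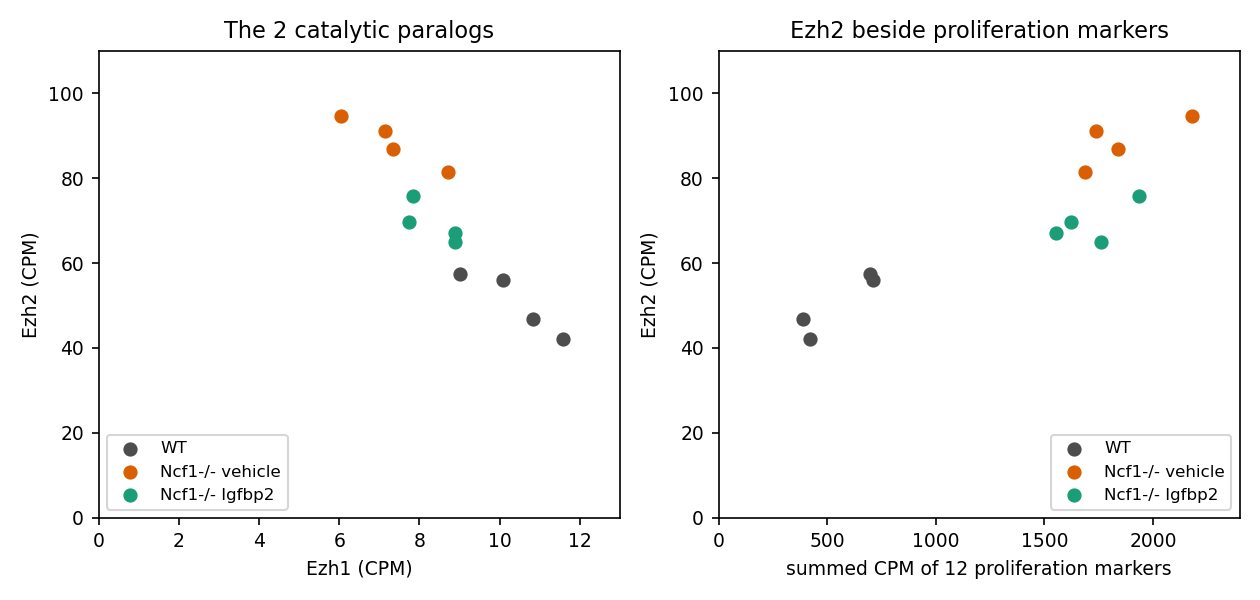
Left, *Ezh2* against *Ezh1*, each in CPM of the same library. Right, *Ezh2* against the summed CPM of 12 proliferation markers. Each point is a library, coloured by group; WT libraries lie at 42.1 to 57.4 CPM of *Ezh2* and 387 to 712 CPM of the markers, and vehicle-treated *Ncf1*-/- libraries at 81.3 to 94.5 and 1686 to 2181.

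The reader of the mark, *Eed*, had 15.4, 14.5, 14.2 and 14.0 CPM in WT and 20.6, 22.1, 22.4 and 24.7 CPM in vehicle-treated *Ncf1*-/- NSCs. All *Ncf1*-/- libraries were higher, with a log2 fold change of 0.63 ± 0.09 (edgeR adjusted p = 5.59e-05). The scaffold *Suz12* had 37.3, 35.5, 38.7 and 41.0 CPM in WT and 43.3, 50.9, 52.9 and 71.9 CPM in *Ncf1*-/-. Its rise was of 0.52 ± 0.13 (edgeR adjusted p = 0.00463) with the *Ncf1*-/- libraries spread widely, and replicate 4 weighed on its size: over the 12 fits that each left out a library it was between 0.32 and 0.62, called in all. *Jarid2* went the other way, from 78.9, 79.7, 91.3 and 72.5 CPM in WT to 49.5, 56.6, 50.9 and 59.5 CPM in *Ncf1*-/-. The groups did not overlap, and the fall was of −0.57 ± 0.09 (edgeR adjusted p = 0.000162). The core and *Jarid2* of the same complex thus moved in opposite directions in these libraries.

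Of the PRC1 genes, only *Cbx8* passed the test. It had 16.7, 16.5, 13.7 and 16.8 CPM in WT and 11.9, 10.7, 11.9 and 11.3 CPM in vehicle-treated *Ncf1*-/- NSCs, without overlap, and the log2 fold change was −0.47 ± 0.11 (edgeR adjusted p = 0.00265). *Bmi1* was between 50.5 and 62.5 CPM in WT and between 49.8 and 66.8 CPM in *Ncf1*-/-, and its log2 fold change of −0.029 had a 95% interval from −0.27 to 0.21 (edgeR adjusted p = 0.836). *Cbx2* was between 12.9 and 16.2 CPM in WT and between 15.01 and 16.8 CPM in *Ncf1*-/- (log2 fold change 0.17, interval −0.11 to 0.45, edgeR adjusted p = 0.269). *Cbx7* had 3.45 to 5.16 CPM in WT and 3.95 to 6.93 CPM in *Ncf1*-/- (log2 fold change 0.35, interval −0.032 to 0.72, edgeR adjusted p = 0.108). *Cbx7* passed the test in 2 of the 12 fits that left out a library, without *Ncf1*-/- replicate 4 (0.44, adjusted p = 0.0327) and without WT replicate 11 (0.45, adjusted p = 0.0441). As a share of the summed TPM of the 3 Cbx genes, *Cbx8* made up 52.3 to 61.2% in WT and 45.7 to 51.2% in vehicle-treated *Ncf1*-/- NSCs, and *Cbx2* 28.5 to 32.0% and 34.6 to 40.4%.

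Markers of dividing cells moved with the PRC2 core. All 12 proliferation markers (such as *Mki67*, *Top2a* and *Cdk1*) were called higher in vehicle-treated *Ncf1*-/- NSCs, with a median log2 fold change of 1.82 and a summed CPM of 387 to 712 in WT and 1686 to 2181 in *Ncf1*-/-. Of the 12 oligodendrocyte markers 10 were called lower and 2 higher, and of the 7 astrocyte markers 6 were called lower, as were 6 of the 10 neuron markers, while of 5 vascular and mesenchymal markers tested (of 8) 3 were higher and 1 lower. Their part in the changes of *Ezh2*, *Eed*, *Suz12*, *Ezh1*, *Jarid2* and *Cbx8* was not tested. Within WT, the libraries with the larger proliferation sums (replicates 9 and 10, 699 and 712 CPM) also had the higher *Ezh2* and the lower *Ezh1*. *Eed* was slightly higher there, but *Suz12* was lower (37.3 and 35.5 against 38.7 and 41.0 CPM in replicates 11 and 12). Their oligodendrocyte sums were larger (11665 and 12203 against 3434 and 7349 CPM). Their astrocyte sums were smaller (6903 and 7568 against 12197 and 11377 CPM). Without WT replicate 12, so that all libraries compared had Y-linked RNA, 6 genes again passed the test, 3 higher and 3 lower, with *Ezh2* at 0.69, *Eed* at 0.58, *Suz12* at 0.53, *Ezh1* at −0.48, *Jarid2* at −0.65 and *Cbx8* at −0.48. On TPM, the study's own test called 2 of the 9, *Ezh2* and *Eed*, and limma called *Ezh2*, *Eed*, *Suz12* and *Jarid2*, while each of the 9 kept the sign of its log2 fold change.

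**Figure D3:**
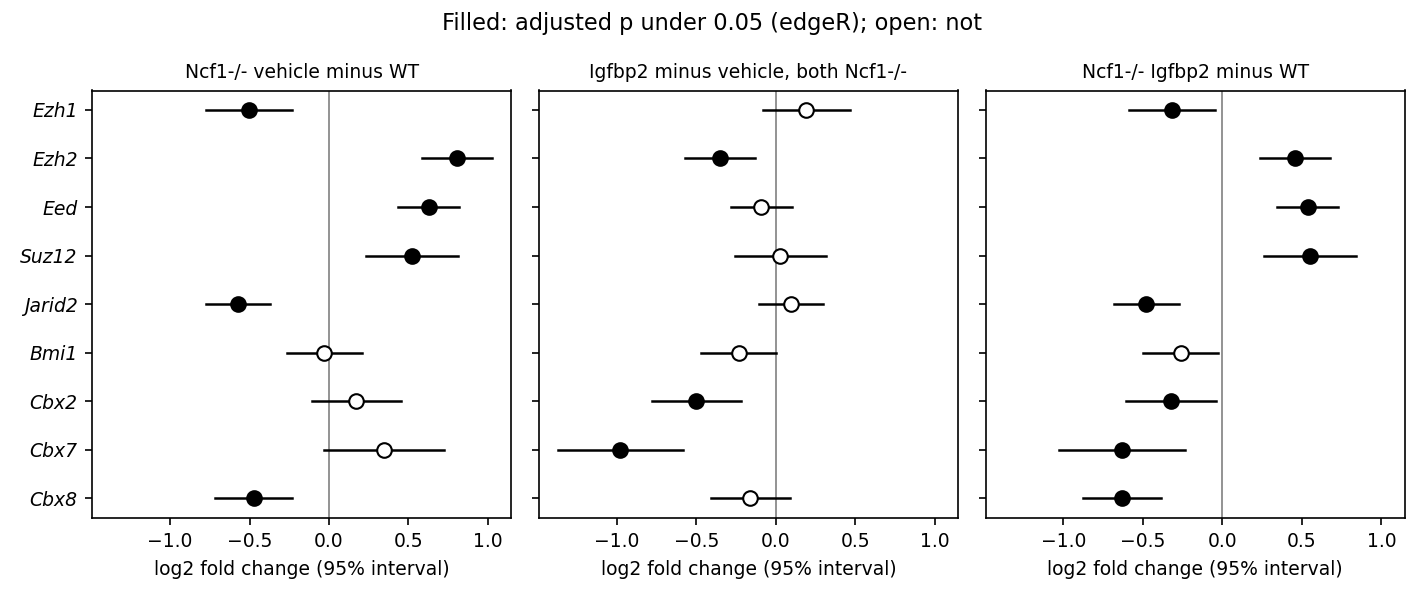
Log2 fold changes of the 9 genes in the 3 comparisons, from the edgeR fit over 15706 genes. Circles are estimates, filled where the adjusted p is under 0.05 and open where it is not, and lines are 95% intervals; the 3 core PRC2 genes *Ezh2*, *Eed* and *Suz12* lie right of 0 in both comparisons with WT, and *Cbx7* lies farthest left in the comparison of Igfbp2 with vehicle.

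The comparison of Igfbp2-treated with vehicle-treated *Ncf1*-/- NSCs asks what the added protein changes in cells that lack Ncf1. Of the 9 Polycomb genes 3 passed the test, all lower with Igfbp2, whereas 25.0% of all genes passed it, 14.2% higher and 10.7% lower. The CPM of these 3 did not overlap between the treatments, as was so for 34.1% of all genes. *Cbx7* fell by 0.98, *Cbx2* by 0.50 and *Ezh2* by 0.35 on the log2 scale. Of these 3, *Ezh2* was also higher in *Ncf1*-/- cultures with vehicle than in WT ones, whereas *Cbx2* and *Cbx7* were not called between those groups.

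*Cbx7* CPM was 6.93, 5.47, 5.56 and 3.95 in vehicle-treated replicates 1 to 4 and 2.71, 2.76, 3.01 and 2.60 in Igfbp2-treated replicates 5 to 8. No libraries overlapped, and the log2 fold change was −0.98 ± 0.18 (edgeR adjusted p = 0.00314), or 0.508-fold, at percentile 4.53 of the log2 fold changes of all genes. It rested on as few as 46 counts in a library, and its exon shares bases with *Apobec3*, as stated. *Cbx2* CPM was 15.9, 16.8, 15.01 and 16.8 with vehicle and 10.2, 12.8, 13.8 and 8.84 with Igfbp2, again without overlap (log2 fold change −0.50 ± 0.13, edgeR adjusted p = 0.0163). Both stayed called in each of the 12 fits that left out a library, with *Cbx7* between −1.09 and −0.84 and *Cbx2* between −0.65 and −0.42. The study's own test on TPM did not call *Cbx7* (−0.91, adjusted p = 0.201).

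*Ezh2* CPM with Igfbp2 was 69.7, 65.0, 75.8 and 67.0, under the lowest vehicle-treated library (81.3) and above the highest WT library (57.4). The log2 fold change between the treatments was −0.35 ± 0.10 (edgeR adjusted p = 0.0248). This call was lost in 5 of the 12 fits that left out a library, without vehicle-treated replicate 2, 3 or 4 or Igfbp2-treated replicate 6 or 8, with adjusted p up to 0.0649 and log2 fold changes between −0.44 and −0.30 over the 12. Of the 12 proliferation markers 0 were called between the treatments by edgeR or DESeq2 (1 higher and 1 lower at an unadjusted edgeR p under 0.05, median log2 fold change −0.18), with a summed CPM of 1555 to 1938 with Igfbp2, a range that overlaps that of vehicle. Fitted without the WT libraries, 5 of these markers were called lower and 0 higher, and 4 lower and 1 higher with the preparation as a block as well. With library totals 3 were called lower, and on TPM 8 (limma) and 4 (the study's own test). Of the 10 neuron markers 2 were lower, and of the 5 vascular and mesenchymal markers 2 higher, with Igfbp2. Their part in the changes of *Ezh2*, *Cbx2* and *Cbx7* was not tested.

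The other 6 genes did not pass the test. *Bmi1* had 49.8, 52.5, 54.4 and 66.8 CPM with vehicle and 45.6, 42.3, 52.4 and 49.8 CPM with Igfbp2, which overlap (log2 fold change −0.23, interval −0.47 to 0.0033, edgeR adjusted p = 0.134). Fitted without the WT libraries, *Bmi1* was called lower as well, which made 4 of the 9 genes, both without a block (−0.28, edgeR adjusted p = 0.0422) and with the preparation as a block (−0.28, adjusted p = 0.0255). The block takes the study's pairing as given, although Y-linked RNA differed between the paired cultures, as stated. *Ezh1* was at 7.75, 8.89, 7.84 and 8.89 CPM with Igfbp2, within or above the vehicle range of 6.04 to 8.71 (log2 fold change 0.19, interval −0.083 to 0.46, edgeR adjusted p = 0.285). *Eed* was between 19.1 and 23.2 CPM with Igfbp2 (−0.090, interval −0.28 to 0.10), *Suz12* between 51.3 and 64.8 (0.030, interval −0.26 to 0.32), *Jarid2* between 53.6 and 63.6 (0.097, interval −0.10 to 0.30) and *Cbx8* between 8.49 and 12.2 (−0.16, interval −0.40 to 0.087). Each of these overlapped its range with vehicle, and of the 6 genes *Bmi1* and *Cbx8* had intervals that include the −0.35 of *Ezh2*.

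How the libraries were scaled decided part of this comparison. The TMM factors, which set the bulk of genes equal between libraries, were 1.08 to 1.14 for vehicle-treated and 0.892 to 0.976 for Igfbp2-treated *Ncf1*-/- libraries. With library totals in their place the median log2 fold change of all genes moved from 0.038 to −0.23, and *Eed*, *Bmi1* and *Cbx8* joined *Cbx7*, *Cbx2* and *Ezh2* as called lower, and of all genes 648 were called higher and 5258 lower in place of 2238 and 1685. Relative to that median, *Cbx7* was at −1.01, *Cbx2* at −0.53, *Ezh2* at −0.39, *Bmi1* at −0.27, *Cbx8* at −0.20 and *Eed* at −0.13. Sex-linked expression differs between these groups, as stated, and its part in these changes was not tested. The WT replicate low in Y-linked RNA had 4.23 CPM of *Cbx7*, within the 3.45 to 5.16 CPM of the others. It had 12.9 CPM of *Cbx2*, under their 14.0 to 16.2 CPM, and 42.1 CPM of *Ezh2*, under their 46.8 to 57.4 CPM. This is 1 library, on whose treatment the sample sheets disagree, so it cannot serve as a contrast of sexes.

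The comparison of Igfbp2-treated *Ncf1*-/- with WT NSCs asks which differences remained with the treatment. It shares its libraries with both comparisons above. Of the 9 genes 8 passed the test, 3 higher and 5 lower, against 62.4% of all genes, 31.6% higher and 30.8% lower. In 7 of the 9 the CPM of the groups did not overlap, against 54.3% of all genes. *Ezh2* was higher than WT by 0.46 ± 0.10 (edgeR adjusted p = 0.00165), *Eed* by 0.54 ± 0.09 (adjusted p = 0.000194) and *Suz12* by 0.55 ± 0.13 (adjusted p = 0.00300), each without overlap between the groups. *Jarid2* was lower by 0.48 on the log2 scale, *Cbx8* by 0.63 and *Cbx7* by 0.63, also without overlap.

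*Ezh1* (log2 fold change −0.32, edgeR adjusted p = 0.0427) and *Cbx2* (−0.33, adjusted p = 0.0444) were called lower close to the threshold, and the *Cbx2* libraries overlapped. Leaving out a library lost the *Ezh1* call in 3 of 12 fits (without vehicle-treated replicate 2, Igfbp2-treated replicate 5 or WT replicate 11) and the *Cbx2* call in 7 of 12 (each except those without vehicle-treated replicate 3 or 4, Igfbp2-treated replicate 6 or 7, or WT replicate 12). *Bmi1* narrowly missed the threshold (−0.26, interval −0.50 to −0.026, edgeR adjusted p = 0.0515) and passed in 5 of the 12 (without replicate 3, 4, 7, 11 or 12). Without WT replicate 12 all 9 genes were called, 3 higher and 6 lower, with *Ezh2* at 0.31, the smallest of its values over the 12 fits. That fit drops the only WT library as low in Y-linked RNA (6.46 summed CPM) as the Igfbp2-treated ones (7.79 to 9.18). The other WT libraries had 107 to 118, and all 4 Y-linked genes were called lower in the main fit of this comparison. Sex-linked expression therefore cannot be told apart here from genotype and treatment, least of all without replicate 12. On TPM, where the median of all genes lay 0.25 to 0.43 lower in the Igfbp2-treated group, *Ezh2* had log2 fold changes of −0.052 to −0.031, *Eed* of 0.084 to 0.13 and *Suz12* of 0.20 to 0.25, and none of these 3 was called with limma or the study's own test. Relative to that median, *Ezh2* was at 0.20 to 0.40, *Eed* at 0.34 to 0.56 and *Suz12* at 0.45 to 0.68. With library totals all 3 were called higher (0.37, 0.45 and 0.46). Whether the core genes stayed above WT therefore depends on the scaling, while they stayed above the median gene in these settings.

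The other genes of the Polycomb system were followed through lists of subunits, of genes for the removal of its marks and of the trithorax group. Of 8 other PRC2 subunits tested (of 9, as *Ezhip* had no match), 3 were higher and 2 lower in *Ncf1*-/- cultures with vehicle than in WT ones. Their median log2 fold change was 0.062 beside 0.015 over all genes. Of all genes, 28.9% were called higher and 28.2% lower in that comparison, and 14.2% and 10.7% between the treatments. *Phf19*, which brings PRC2 to marked chromatin, rose by 1.77 ± 0.11 (edgeR adjusted p = 8.45e-08), from 5.0 ± 0.48 to 17.1 ± 1.4 CPM (SD, n = 4). The histone-binding subunits *Rbbp7* (1.18 ± 0.08) and *Rbbp4* (0.31 ± 0.09) rose with it, and *Lcor* (−0.92 ± 0.16) and *Epop* (−0.80 ± 0.18), which join the same form of the complex as *Phf19*, fell. Between the treatments 2 of the 8 were lower and 0 higher (edgeR, as with DESeq2; 1 was higher at an unadjusted edgeR p under 0.05): *Mtf2*, at 15.4 ± 1.7 CPM with vehicle and 9.72 ± 0.53 CPM with Igfbp2 (log2 fold change −0.67 ± 0.11, adjusted p = 0.00167), and *Phf1* (−0.55 ± 0.16, adjusted p = 0.0301), both Polycomb-like proteins that help PRC2 bind DNA.

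Of 21 other PRC1 subunits, 5 were higher and 10 lower in *Ncf1*-/- cultures with vehicle than in WT ones, with a median log2 fold change of −0.26 (2 higher and 10 lower without WT replicate 12). The shares of all genes were 28.9% higher and 28.2% lower, and between the treatments 14.2% and 10.7%. *Pcgf2* (Mel18), the close relative of *Bmi1*, fell by 1.96 on the log2 scale (edgeR adjusted p = 6.79e-07), from 21.8 ± 3.2 to 5.61 ± 0.91 CPM, whereas *Bmi1* was not called. *Bcorl1* (−1.50 ± 0.10) and *Bcor* (−1.42 ± 0.16), of the variant form of PRC1, fell, and *Scml2* (1.69 ± 0.22), at no more than 113 counts, rose. Between the treatments 4 of the 21 were higher and 0 lower (edgeR, as with DESeq2; 1 was lower at an unadjusted edgeR p under 0.05), among them *Bcorl1* (0.70 ± 0.10), *Phc3* (0.38 ± 0.12) and *Scmh1* (0.29 ± 0.08). Fitted without the WT libraries, 5 were called higher and 2 lower, and with the preparation as a block as well 5 higher and 1 lower. With library totals *Bcorl1* (0.43) stayed called, *Phc3* and *Scmh1* did not, and 7 other subunits were called lower. On TPM (limma) 0 of the 21 were higher and 10 lower, and *Scmh1* turned sign.

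Genes for the removal of Polycomb marks, and trithorax group genes, were more often called lower than higher in *Ncf1*-/- NSCs. There 28.2% of all genes were called lower and 28.9% higher, and between the treatments 10.7% and 14.2%. Of 10 genes of the H2A deubiquitinase PR-DUB and of the H3K27 demethylases, 7 were lower and 0 higher (edgeR and DESeq2, 0 higher also at an unadjusted edgeR p under 0.05, median −0.54), among them the demethylase *Kdm6b* (−1.64 ± 0.13, from 240 ± 41 to 77.2 ± 3.0 CPM), *Asxl3* (−2.06 ± 0.23), *Foxk1* (−0.99 ± 0.13) and *Mbd5* (−0.71 ± 0.11). Of 13 trithorax group genes, which keep genes active, 9 were lower and 2 higher (median −0.47), with falls of the histone H3 lysine 4 methyltransferases *Kmt2d* (−1.59 ± 0.16), *Setd1b* (−1.53 ± 0.11) and *Kmt2c* (−1.23 ± 0.14) and a rise of their shared subunit *Dpy30* (1.05 ± 0.10). On TPM, limma called 5 of the 10 and 6 of the 13 lower, and the study's own test 3 and 4. With Igfbp2, 3 of the 10 and 2 of the 13 were higher than with vehicle and 0 lower (edgeR; DESeq2 called 3 and 3 higher and 0 lower; 0 were lower at an unadjusted edgeR p under 0.05): *Kdm6b* (0.78 ± 0.13, to 133 ± 21 CPM), *Foxk1* (0.50 ± 0.13), *Kdm6a* (0.32 ± 0.07), *Kmt2d* (0.48 ± 0.16) and *Setd1b* (0.35 ± 0.11). With library totals only *Kdm6b* (0.52) of these 5 stayed called, beside 3 genes of the first list and 4 of the trithorax group called lower. Fitted without the WT libraries 1 trithorax gene was called higher, and 0 were called with the preparation as a block as well or, in the fit of all groups, without WT replicate 12, with *Kmt2d* at 0.41 (edgeR adjusted p = 0.0693) and *Setd1b* at 0.30 (adjusted p = 0.0733) under the block. On TPM 0 of either list were called higher, and *Kdm6a*, *Kmt2d* and *Setd1b* turned sign. *Kdm6a* is X-linked and escapes X inactivation, and the treatments differ in sex-linked expression. Which other genes of the 4 lists, those of PRC1 and PRC2 included, are X-linked was not examined.

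**Figure D4:**
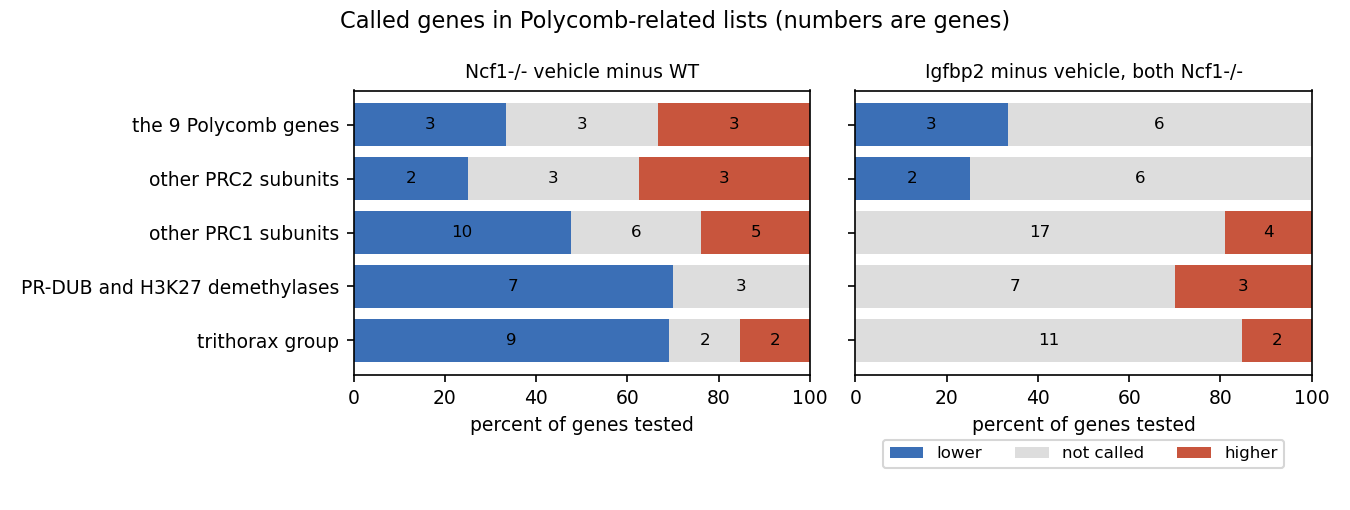
Share of the genes tested in each list that were called lower (blue), called higher (red) or not called (grey) by edgeR, for vehicle-treated *Ncf1*-/- against WT (left) and Igfbp2 against vehicle (right). Numbers in the bars are genes; the PR-DUB and demethylase list had 7 of 10 genes lower in *Ncf1*-/- and the trithorax group 9 of 13.

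Classical targets of the complexes gave little signal or an uneven one. Of 39 Hox genes, which PRC2 silences in the forebrain, 0 passed the filter on low counts, and their summed CPM was at most 0.27 in WT, 0.41 in vehicle-treated and 0.34 in Igfbp2-treated *Ncf1*-/- NSCs. At the locus of the cell cycle inhibitors that *Bmi1* is known to repress, *Cdkn2a* was higher in *Ncf1*-/- cultures with vehicle than in WT ones (29.8 ± 2.5 against 16.6 ± 3.1 CPM, log2 fold change 0.84 ± 0.12, edgeR adjusted p = 6.56e-05). *Cdkn2b* was not called there (−0.31 ± 0.16, adjusted p = 0.113) but was higher with Igfbp2 than with vehicle (20.3 ± 2.9 against 9.40 ± 1.68 CPM, 1.11 ± 0.16, adjusted p = 0.000956).

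The genes whose log2 CPM followed each catalytic subunit most closely over the 12 libraries were sought among the 11172 genes that averaged 5 CPM or more. For *Ezh2* they included *Fbxo5* (Pearson r = 0.988), an inhibitor of the anaphase-promoting complex, *Hnrnpa2b1* (0.986), *Tra2b* (0.983) and *Srsf7* (0.978), the last pair being splicing factors. For *Ezh1* they were *Os9* (0.944), *Daam2* (0.936), *Sh2b1* (0.933), *Ephb6* (0.926) and *Inhbb* (0.925), an activin subunit. The points of each r share their libraries, scaling and groups, and the values are a description.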

How the data were processed

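RNA of 12 NSC cultures was depleted of rRNA and sequenced. Per the labels the authors mapped reads to GRCm38 with Bowtie2 and quantified them with RSEM, with versions and annotation not given in the sources used here. They deposited expected counts per gene without normalization, TPM and FPKM (not used) for each library, and a merged table of a score derived from TPM, from which gene symbols were taken. The 9 genes and all gene lists were chosen with earlier results of these data known.

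Expected counts were rounded (15.9% were not whole). Genes were kept by filterByExpr (15706 genes, 99.9% of counts), scaled with TMM and fitted with edgeR 4.0.16 (quasi-likelihood, R 4.3.3) with a mean per group over the 12 libraries and no covariate. P-values were two-sided and adjusted over all genes by Benjamini-Hochberg, and measure the spread between cultures. Calls took adjusted p under 0.05. The test was checked on simulated counts in which few genes were changed, in a single group. That check does not cover comparisons in which most genes differ, as between *Ncf1*-/- and WT, nor the choice of scaling. Beyond the members, the text names of each list the 4 called genes with the largest change in each of 2 comparisons, *Cdkn2a*, *Cdkn2b* and the 5 genes most like *Ezh1* and *Ezh2*. Of the genes these rules name, 2 are not reported here.

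Alternatives were DESeq2 1.42.0, library totals, a fit of only the 2 groups compared, all genes unfiltered, genes averaging 5 CPM or more, the study's own test (ANOVA with Tukey's test on TPM), limma 3.58.1 on log2(TPM + 1) and log2(TPM + 0.1), each library left out, and the preparation as a block. The study states that vehicle- and Igfbp2-treated cultures share preparations; with group means removed, cultures of the same preparation correlated across genes at −0.067 to 0.033 (4 pairs) and others at −0.248 to 0.257 (12 pairs).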

Additional observations from a re-analysis of the deposited data

Results flagged for a closer look

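*Cbx8* in WT replicate 11 was 13.7 CPM, against 16.5 CPM or more in the other 3 WT libraries, a gap of 0.90 of the group's range and above the critical value of Dixon's test for groups of 4. It was the only such library among 27 groups of values (9 genes in 3 groups), where chance flags about 1 in 20. *Cbx8* stayed called lower in *Ncf1*-/- cultures with vehicle than in WT ones in each of the 12 fits that left out a library, that library included.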

How the results depend on the processing

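Of 546 values of the 9 genes under the alternatives, 457 kept their direction and their side of the threshold, 35 lost and 25 gained a call and 29 turned sign. All 29 were of values that were not called in the main fit and lay between −0.029 (*Bmi1*) and 0.19 (*Ezh1*), except those of *Ezh2* between Igfbp2-treated *Ncf1*-/- and WT NSCs. After turning they were as low as −0.44 (*Jarid2* between the treatments, limma on TPM with a pseudocount of 0.1), where the median of all genes was −0.42. *Ezh2* and *Eed* stayed higher in *Ncf1*-/- cultures with vehicle than in WT ones, and *Jarid2* and *Cbx8* lower in Igfbp2-treated *Ncf1*-/- than in WT NSCs, in each of 20 alternatives, and *Cbx2* stayed lower with Igfbp2 than with vehicle in each of 21. The cause of the other changes was not tested.

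With library totals, 6 of the 9 genes were called between the treatments, 0 higher and 6 lower, and of all genes 5906 (648 higher and 5258 lower) in place of 3923 (2238 higher and 1685 lower). There *Ezh1* was at −0.080, *Suz12* at −0.24 and *Jarid2* at −0.18, and *Bmi1* at 0.15 between vehicle-treated *Ncf1*-/- and WT NSCs. That setting moved the median of all genes to 0.19 between *Ncf1*-/- and WT and called 6024 genes higher and 3159 lower there, in place of 4545 and 4433.

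On TPM the median between the treatments was −0.30 (limma, pseudocount 1), −0.42 (pseudocount 0.1) and −0.43 (ANOVA). With ANOVA and Tukey's test 2 genes of the 9 were called between vehicle-treated *Ncf1*-/- and WT NSCs (4329 of all genes) and 3 between Igfbp2-treated *Ncf1*-/- and WT NSCs (5592), with 2149 of all genes called between the treatments (64 higher). *Ezh1* was at −0.23, *Suz12* at −0.41 and *Jarid2* at −0.43 between the treatments, and *Ezh2* at −0.031 between Igfbp2-treated *Ncf1*-/- and WT NSCs. With limma and pseudocounts of 1 and 0.1, 6 of the 9 were called between the treatments, 0 higher, and 6354 and 6519 of all genes. *Ezh1* was at −0.14 and −0.23, *Suz12* at −0.37 and −0.41, *Jarid2* at −0.39 and −0.44, and *Ezh2* against WT at −0.049 and −0.052.

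*Suz12* was at −0.028 with a mean of at least 5 CPM (where *Cbx7* has no value) and at −0.015 with only the 2 groups compared, where *Bmi1* was called and 4 of the 9 genes were lower. With the preparation as a replicate block in that fit *Suz12* was at −0.00018, and the same 4 genes were called. With each library left out, *Suz12* was between −0.092 and 0.21 between the treatments and *Bmi1* between −0.17 and 0.026 between *Ncf1*-/- and WT, 2 to 3 of the 9 and 2294 to 4872 of all genes were called between the treatments, and 2294 was reached without vehicle-treated replicate 2, 2320 without replicate 1 and 2550 without Igfbp2-treated replicate 6. Log2 fold changes had a median SE of 0.14 over all genes, which limits how small a change could be called with 4 libraries per group.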
